A study of Homo sapiens with 6 samples.

Results

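Cell adhesion molecules are membrane proteins that hold a cell to its neighbours or to the matrix and pass signals inward. Described here are 10 genes for such molecules, of 15761 genes in all, in SK-MES-1, a cell line established from a human squamous carcinoma of the lung. Of them, 8 encode proteins with immunoglobulin folds outside the cell (L1CAM, NRCAM, ALCAM, BCAM, MCAM, NECTIN1, NECTIN3 and CADM1). The other 2 belong to different families: CD44 binds the matrix sugar hyaluronan, and EPCAM is an epithelial surface glycoprotein. The genes were chosen by name, with the difference between the groups of libraries already known. Levels and fold changes of these 10 genes are therefore given as a description, without p-values.

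Both groups were SK-MES-1 cells labelled wild type, kept in culture for 72 h. In 1 group (exosome, n = 3) the medium held 20 µg/ml of exosomes, small vesicles that cells release, which came from fibroblasts of lungs with idiopathic pulmonary fibrosis, a scarring disease. In the other group (control, n = 3) it held none, so vesicles of another source were not compared. The study asks what the fibroblast vesicles do to the transcripts of the tumour cells. Whether the cultures of a group were set up separately is not in the labels, so errors measure the spread between these libraries, which may be technical.

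Immunoglobulin-type adhesion molecules bind either a copy of themselves on the next cell or a different partner. Their short tails attach to the actin or spectrin skeleton through ankyrins, ezrin-type linkers or afadin, and proteases can cut the outer part off the surface. In carcinomas L1CAM, ALCAM, MCAM, CD44 and EPCAM are widely studied as markers of invasive or stem-like cells. Transcript counts show neither the protein at the surface nor its cleavage, and counts per gene do not separate splice forms, of which CD44 has many.

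Libraries held 11346639 to 13334508 counts, so that 1 CPM (a read count scaled to the library total) stood for 11.3 to 13.3 reads. Replicate 3 stood apart in both groups. In control its chi-square per gene against replicates 1 and 2 was 16.2 and 12.1, against 2.31 between those, and with exosomes 9.71 and 7.41, against 3.18. Of the epithelial markers, the keratin KRT8 was at 2340 CPM in control, KRT18 at 997 CPM, KRT19 at 930 CPM and CDH1 at 51.5 CPM. The squamous keratins KRT5, KRT6A and KRT14 were at 0.130, 0.0556 and 0.0818 CPM, and the squamous regulator TP63 at 1.51 CPM. KRT6B and DSC3, of the same list, were at 0.0520 and 0.0774 CPM, and DSG3 and PKP1 were not found in the deposited data. Other markers of the list were present: PERP at 143, KRT15 at 18.3, SOX2 at 4.34 and KRT17 at 3.47 CPM.

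By level per length, CD44 led and the order of the genes spanned a wide range. The authors' FPKM (reads scaled to gene length and to library total) in control was 134 ± 2.49 (mean ± SD, n = 3 here and below) for CD44, above 98.5% of all genes in the table. ALCAM followed at 82.3 ± 6.28 FPKM and EPCAM at 33.9 ± 3.38 FPKM. BCAM was at 10.3 ± 1.31 and MCAM at 9.52 ± 0.152 FPKM, and these neighbours overlapped (8.77 to 11.3 and 9.36 to 9.67 FPKM). NECTIN1 was at 7.41 ± 0.299, NECTIN3 at 4.99 ± 0.375, L1CAM at 3.17 ± 0.482 and CADM1 at 0.809 ± 0.259 FPKM, with no overlap between neighbours in that stretch. With exosomes MCAM, at 6.27 ± 1.10 FPKM, stood below NECTIN1, at 9.29 ± 0.566 FPKM, and the other ranks were as in control. Using CPM per kilobase of the longest annotated transcript in place of FPKM, MCAM and NECTIN1 changed places in control too.

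**Figure D1:**
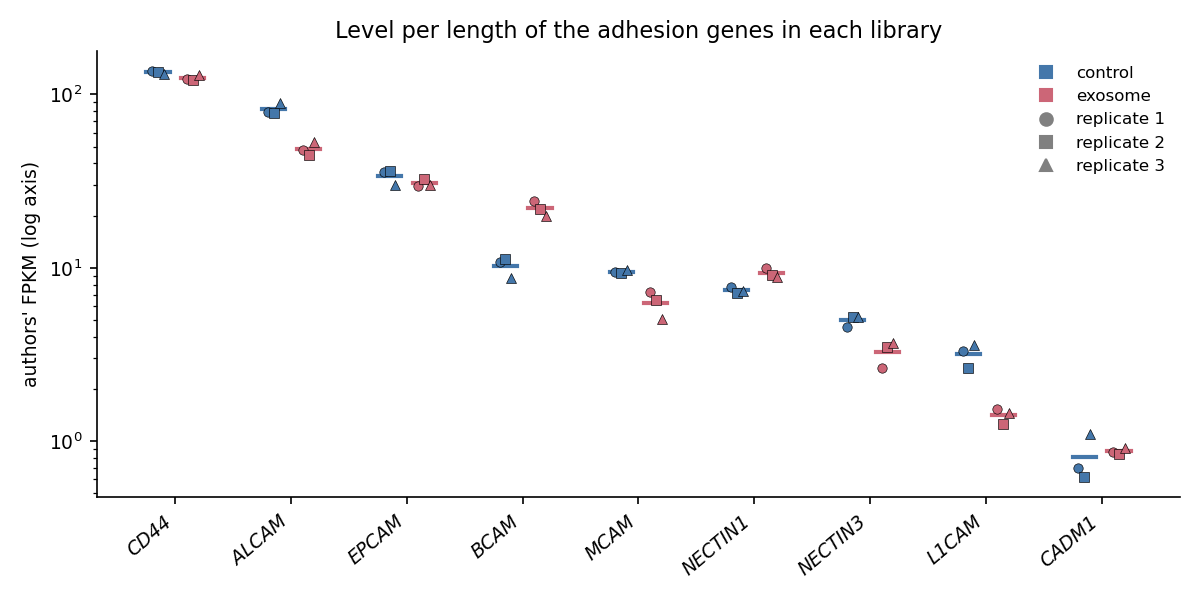
Level per length of 9 adhesion genes in each library, as the authors' FPKM on a log axis, with short bars at the group means of control (blue) and exosome (red) libraries. Genes run from CD44 at 134 FPKM in control to CADM1 at 0.809 FPKM, and BCAM is the gene whose exosome libraries lie farthest above control.

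NRCAM was almost absent, with 2, 1 and 0 reads in the control libraries and 1 read in each exosome library. That is 3 reads a group, which is also what 0 reads in 1 library would allow, so no fold is given and NRCAM was not tested. NRCAM is a neuronal adhesion molecule of the L1 family that gathers at nodes of axons. Its gene lies on chromosome 7 from 108147623 to 108456717 (GRCh38, minus strand).

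Across the other 9 genes, exosome libraries held less L1CAM, ALCAM, MCAM and NECTIN3 and more BCAM than control libraries. CD44, EPCAM and NECTIN1 differed by little, and CADM1 by less than its spread. In edgeR's test 5 of the 9 were called lower and 2 higher. Of all 12449 tested genes 26.1% were called lower and 25.6% higher, 51.7% in all. Since the genes were chosen with this contrast known, nothing is read from that count. Exosome and control libraries did not overlap in CPM for 7 of the 9, with exosomes lower in 5 and higher in 2. Over all tested genes this held for 59.5%, with exosomes lower in 24.5% and higher in 35%. Calls of CD44 and NECTIN1 depended on which libraries were kept. CD44 was not called without control replicate 1 or 2 or exosome replicate 1 or 2. NECTIN1 was not called without control replicate 2 or exosome replicate 1 or 2. With any 1 library left out, their log2 fold changes kept their direction, at -0.24 to -0.17 (CD44) and 0.20 to 0.29 (NECTIN1). EPCAM was called lower without control replicate 3. In this bulk RNA, fewer cells that express a gene and less RNA per cell cannot be told apart.

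**Figure D2:**
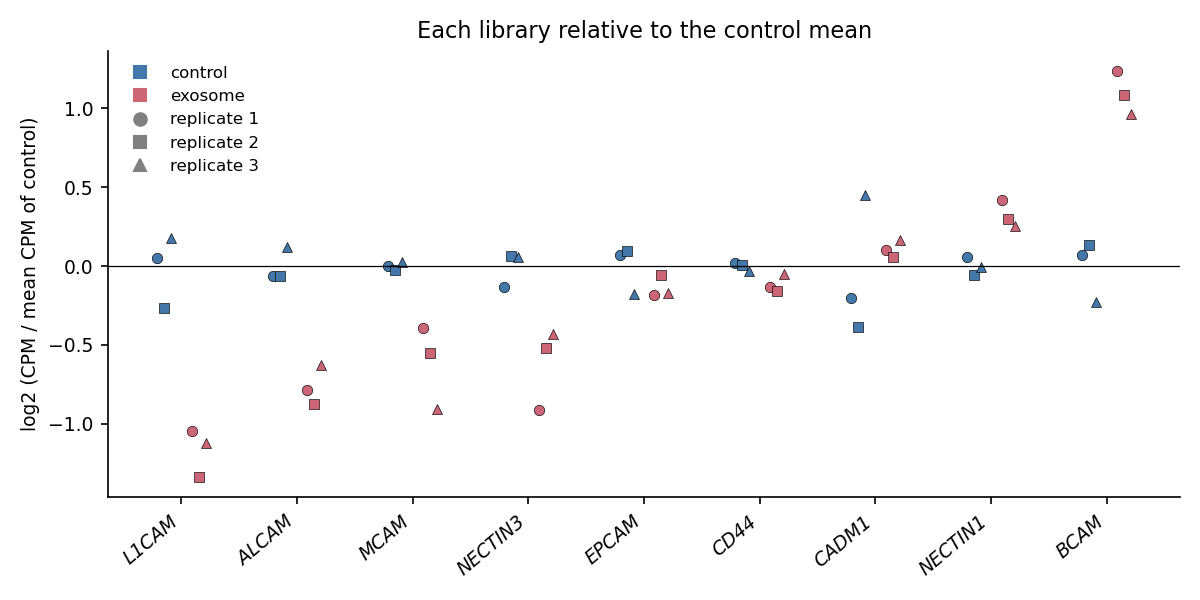
Each library's CPM relative to the control mean, on a log2 axis, for 9 adhesion genes ordered by fold change. Blue control libraries and red exosome libraries do not overlap for L1CAM, ALCAM, MCAM, NECTIN3, CD44, NECTIN1 and BCAM, and overlap for EPCAM and CADM1.

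L1CAM, a neuronal cell adhesion molecule that also appears at the invasive edge of carcinomas, had the lowest fold change. It was at 16.9, 13.6 and 18.4 CPM in control replicates 1 to 3 and at 7.90, 6.44 and 7.50 CPM with exosomes. Every exosome library lay below every control library, and replicate 2 was the lowest of each group. The log2 fold change of exosome over control was -1.25 ± 0.16 (SE), or 2.37-fold lower. L1CAM lies on chromosome X from 153861514 to 153886174 (minus strand), where the annotation also places an unnamed coding gene on the same strand and a noncoding gene on the other. It rests on 84 to 238 reads a library.

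BCAM, also called Lutheran glycoprotein, is a receptor for laminin of the basement membrane and the gene with the highest fold change. It was at 36.9, 38.6 and 30.1 CPM in control and at 82.9, 74.8 and 68.7 CPM with exosomes. Its groups lay far apart, and replicate 3 was the lowest library of each. The log2 fold change was 1.02 ± 0.10, or 2.03-fold higher. BCAM lies on chromosome 19 from 44809059 to 44821421 (plus strand), with no overlapping gene in the annotation.

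ALCAM, which binds itself and the lymphocyte receptor CD6, was the second most abundant gene of the set. It had the second lowest fold change before the correction described below for transcript composition. It was at 373, 372 and 424 CPM in control and at 226, 212 and 252 CPM with exosomes. Replicate 3 was the highest library of each group, and the groups did not overlap. The log2 fold change was -0.84 ± 0.083, or 1.79-fold lower. ALCAM lies on chromosome 3 from 105366909 to 105576900 (plus strand), with no overlapping gene in the annotation.

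Before that correction these 3 genes had the largest differences, 1 upward and 2 downward. With it, MCAM (-0.83) differed by more than BCAM (0.59) and ALCAM (-0.53). Promoter windows of the 3 genes are shown for comparison. Each runs from 250 bases before to 50 after a RefSeq transcript start (GRCh38.p14), 5′ to 3′ on the gene's strand, with capitals on every GGGCGG, the core of the box that Sp1-type factors bind, on either strand. They lie at chr19:44808809-44809108 (BCAM, plus), chrX:153875895-153876194 (L1CAM, minus) and chr3:105366659-105366958 (ALCAM, plus).
BCAM: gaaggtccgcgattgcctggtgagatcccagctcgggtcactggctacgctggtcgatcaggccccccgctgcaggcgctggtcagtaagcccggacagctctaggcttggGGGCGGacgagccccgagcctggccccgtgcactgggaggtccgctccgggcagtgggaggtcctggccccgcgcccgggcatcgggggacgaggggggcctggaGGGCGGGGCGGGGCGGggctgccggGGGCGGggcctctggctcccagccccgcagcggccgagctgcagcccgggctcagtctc
L1CAM: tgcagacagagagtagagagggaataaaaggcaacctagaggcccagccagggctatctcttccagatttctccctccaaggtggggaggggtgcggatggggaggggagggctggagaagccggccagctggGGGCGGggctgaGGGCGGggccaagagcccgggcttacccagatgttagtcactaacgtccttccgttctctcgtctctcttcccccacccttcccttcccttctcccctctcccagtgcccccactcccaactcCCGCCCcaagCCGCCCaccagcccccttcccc
ALCAM: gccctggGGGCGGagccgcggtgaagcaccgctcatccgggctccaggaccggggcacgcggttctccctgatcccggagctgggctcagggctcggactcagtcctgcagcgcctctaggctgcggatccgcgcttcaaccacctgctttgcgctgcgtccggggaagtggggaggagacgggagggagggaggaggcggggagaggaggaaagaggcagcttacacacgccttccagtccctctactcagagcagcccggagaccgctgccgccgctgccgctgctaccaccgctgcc
The box occurred 5 times in the BCAM window, in part overlapping, 4 times in that of L1CAM (2 on each strand) and 1 time in that of ALCAM. Of 34943 windows of this length in the RefSeq table, 44.9% held it at least 1 time. GC content was 76.0% (BCAM), 64.7% (L1CAM) and 70.0% (ALCAM), against a median of 58.7% over all windows, and there were 28, 10 and 26 CpG pairs, against a median of 14. BCAM and L1CAM each have a second, overlapping window. The L1CAM windows lie inside the span of the annotated gene, away from its 5′ end, while those of BCAM and ALCAM lie at the 5′ end.

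RefSeq windows matched 7 of the 10 genes: L1CAM, ALCAM, BCAM, MCAM, CD44, NECTIN3 and NRCAM, but not EPCAM, NECTIN1 and CADM1. In the first windows of the other matched genes the box occurred 5 times (MCAM), 5 times (NECTIN3), 2 times (CD44) and 2 times (NRCAM). Windows of MCAM and NECTIN3, which were lower with exosomes, and of BCAM, which was higher, each held 5. Whether the box bears on the fold changes was not tested. The MCAM window lies well inside the annotated gene, as those of L1CAM do. Neither GGAATG (read by TEAD factors, in 14.0% of all windows), TGANTCA (AP-1, 7.72%) nor TATAAA (the TATA box, 11.6%) occurred on either strand in a window of these genes, except 1 TGANTCA in the third NRCAM window.

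MCAM (CD146), an adhesion molecule of vessel walls and melanoma, is a close structural relative of BCAM and ALCAM. It was at 31.5, 31.0 and 32.0 CPM in control and at 24.0, 21.5 and 16.8 CPM with exosomes. Exosome replicate 3 was the lowest library, and the groups did not overlap. The log2 fold change was -0.69 ± 0.12, or -0.56 without exosome replicate 3. Thus the 3 relatives did not share a direction: BCAM was higher, and ALCAM and MCAM were lower. MCAM lies on chromosome 11 from 119308529 to 119321521 (minus strand) and overlaps CBL on the other strand, and whether the counting used strand is not stated.

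Nectins join neighbouring cells at adherens junctions, and NECTIN1 and NECTIN3 bind each other across the gap between cells. NECTIN3 was at 21.1, 24.1 and 24.0 CPM in control and at 12.2, 16.1 and 17.1 CPM with exosomes, with exosome replicate 1 lowest. The groups did not overlap, and the log2 fold change was -0.69 ± 0.13. NECTIN1 was at 48.4, 44.7 and 46.3 CPM in control and at 62.2, 57.1 and 55.3 CPM with exosomes. Its groups did not overlap either, and its log2 fold change was 0.24 ± 0.090, on the other side of 0 from NECTIN3. With the correction described below for transcript composition it was 0.0080 ± 0.074, and that of NECTIN3 was -0.41 ± 0.12. NECTIN3 lies on chromosome 3 from 111070071 to 111275563 (plus strand), and NECTIN1 on chromosome 11 from 119623408 to 119729084 (minus strand); both overlap annotated antisense genes.

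CADM1, a nectin-like molecule known as a tumour suppressor of lung cancer, was at 6.21, 5.46 and 9.75 CPM in control and at 7.67, 7.44 and 8.02 CPM with exosomes. Control replicate 3 was the highest of all libraries and the other control libraries the lowest, so that the groups overlapped. The log2 fold change was 0.024 ± 0.19. Without control replicate 3 it was 0.32, and without control replicate 2 it was -0.12. CADM1 lies on chromosome 11 from 115169218 to 115504957 (minus strand) and overlaps 3 annotated noncoding genes on the other strand.

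CD44 was at 833, 824 and 804 CPM in control and at 747, 736 and 791 CPM with exosomes. The gap between the groups, from 791 to 804 CPM, was narrower than the spread within either. The log2 fold change was -0.20 ± 0.074. EPCAM was at 71.4, 72.6 and 60.3 CPM in control and at 59.8, 65.4 and 60.5 CPM with exosomes, and its groups overlapped through control replicate 3. Its log2 fold change was -0.22 ± 0.092. CD44 lies on chromosome 11 from 35138870 to 35232402 and EPCAM on chromosome 2 from 47345158 to 47387601, both on the plus strand; CD44 overlaps an antisense gene.

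In sum over the 10 genes, control libraries held 1427 to 1449 CPM and exosome libraries 1197 to 1277 CPM. Of the reads of these genes, CD44 took 57.0 ± 1.37% in control and 61.4 ± 0.614% with exosomes. The share of ALCAM was 27.1 ± 1.89% and 18.6 ± 1.02%, and that of BCAM 2.45 ± 0.329% and 6.12 ± 0.688%. These are shares of reads, in which longer transcripts count for more.

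Fold changes in these libraries moved with base composition. Between the lowest and the highest of 10 groups of genes by transcript GC content, with median GC of 37.0% and 64.3%, the median log2 fold change of all tested genes went from -0.39 to 0.49; where this trend comes from was not tested. L1CAM and MCAM went against this trend. L1CAM transcripts have 60.0% GC, and the 748 genes within 1 percentage point of it had a median of 0.36, against -1.25 for L1CAM. For MCAM (55.1% GC, 741 such genes) the median was 0.22, against -0.69. BCAM (64.1% GC, median 0.44), ALCAM (39.6% GC, median -0.33) and NECTIN3 (38.9% GC, median -0.35) lay on the side of their neighbours, farther out. NECTIN1 (60.4% GC) lay below the median of its neighbours, 0.24 against 0.37.

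**Figure D3:**
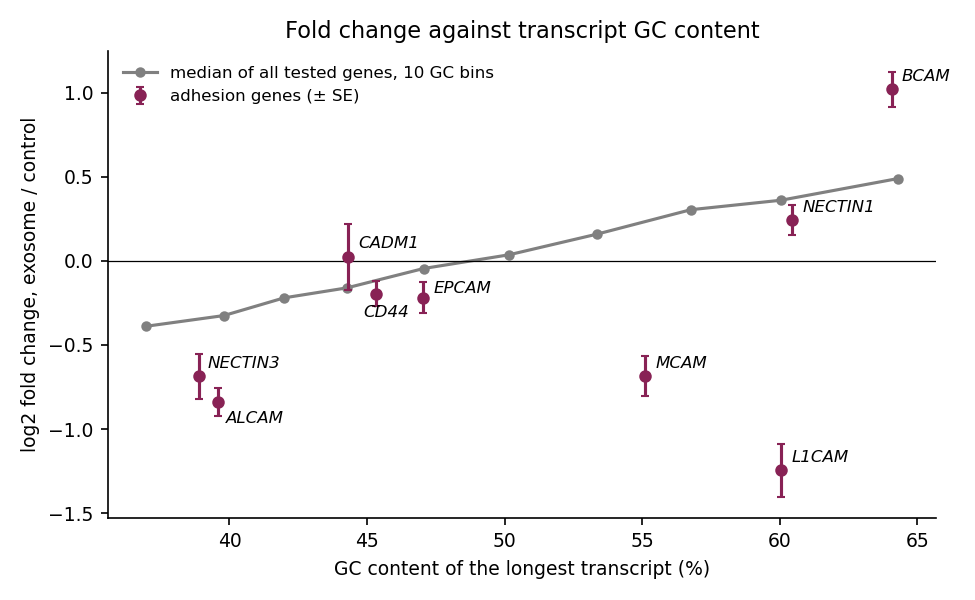
Log2 fold change of exosome over control (± SE) against the GC content of the longest annotated transcript for 9 adhesion genes (purple), with the median of all tested genes in 10 GC bins (grey line). L1CAM and MCAM lie below 0 where the grey line lies above it, and BCAM lies above the line.

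With the trend on GC content and length removed within each library, L1CAM was at -1.49 ± 0.15 and MCAM at -0.83 ± 0.10, both farther from 0. BCAM was at 0.59 ± 0.077, ALCAM at -0.53 ± 0.061 and NECTIN3 at -0.41 ± 0.12, each nearer to 0 and in the same direction. CD44 (-0.0061 ± 0.059) and NECTIN1 (0.0080 ± 0.074) were then close to 0. EPCAM was at -0.31 ± 0.072 and CADM1 at 0.31 ± 0.18. After correction 5 of the 9 were called lower and 1 higher, where 17.3% of all tested genes were called lower and 18% higher, 35.3% in all. EPCAM was among the 5 and CD44 was not, and NECTIN1 was no longer called.

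**Figure D4:**
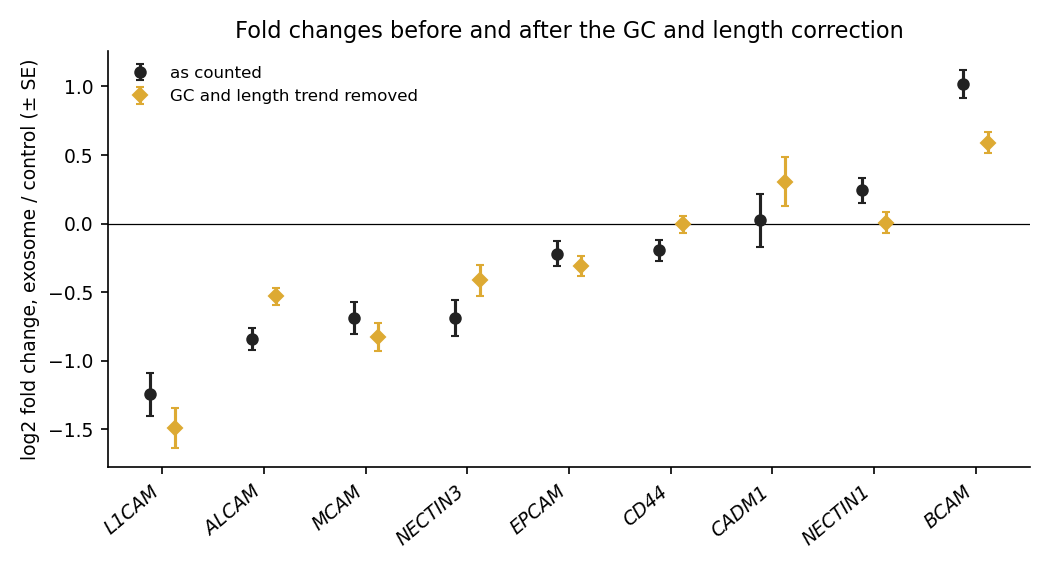
Log2 fold change of exosome over control (± SE) for 9 adhesion genes as counted (black circles) and with the trend on GC content and length removed in each library (yellow diamonds). CD44 and NECTIN1 come to lie at 0, L1CAM and MCAM move away from it, and BCAM, ALCAM and NECTIN3 keep their direction at a smaller size.

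Other adhesion molecules, from a list of 56 that leaves out these 10 genes, were counted in the same test. Of the 43 that the deposited data hold, 33 were tested, of which 13 fell and 6 rose (57.6% called, against 51.7% of all tested genes); their median log2 fold change was -0.10, against -0.0042 over all genes. By direction, 39.4% were lower and 18.2% higher, against 26.1% and 25.6% of all tested genes. Corrected, 11 were lower and 3 higher (median -0.21), so that 42.4% were called, against 35.3% of all tested genes. ICAM5 rose from 3.46 ± 0.992 to 12.3 ± 2.07 CPM (1.75 ± 0.21, edgeR adjusted p = 9.72e-07; corrected 1.19), and ICAM1, the ligand of leukocyte integrins, rose by 1.14 (corrected 0.85). CXADR, a tight junction protein and virus receptor, fell by 0.76 on the log2 scale (corrected -0.41), and AMIGO2 fell by 0.82 (corrected -0.69).

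Among the near relatives, the nectin NECTIN2 (27.3 ± 1.98 and 41.4 ± 2.67 CPM) and PVR, a nectin-like receptor (156 ± 2.97 and 215 ± 2.66 CPM), rose by 0.52 and 0.38. Neither call held with the correction (0.11, edgeR adjusted p = 0.326, and 0.10, adjusted p = 0.194). CADM4, a relative of CADM1, did not pass (0.77 ± 0.33, edgeR adjusted p = 0.0565), though it passed without exosome replicate 3 (0.89, adjusted p = 0.0447) and when scaled by library totals (0.85, adjusted p = 0.0368). NECTIN4 (0.258 and 0.582 CPM) and the L1 family gene NFASC (0.129 and 0.0253 CPM) were too low to test, and CHL1 was not found in the deposited data. PVR overlaps CEACAM19 on the same strand, AMIGO2 overlaps the coding gene PCED1B, and ICAM1, NECTIN2 and PVR overlap antisense genes.

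**Figure D5:**
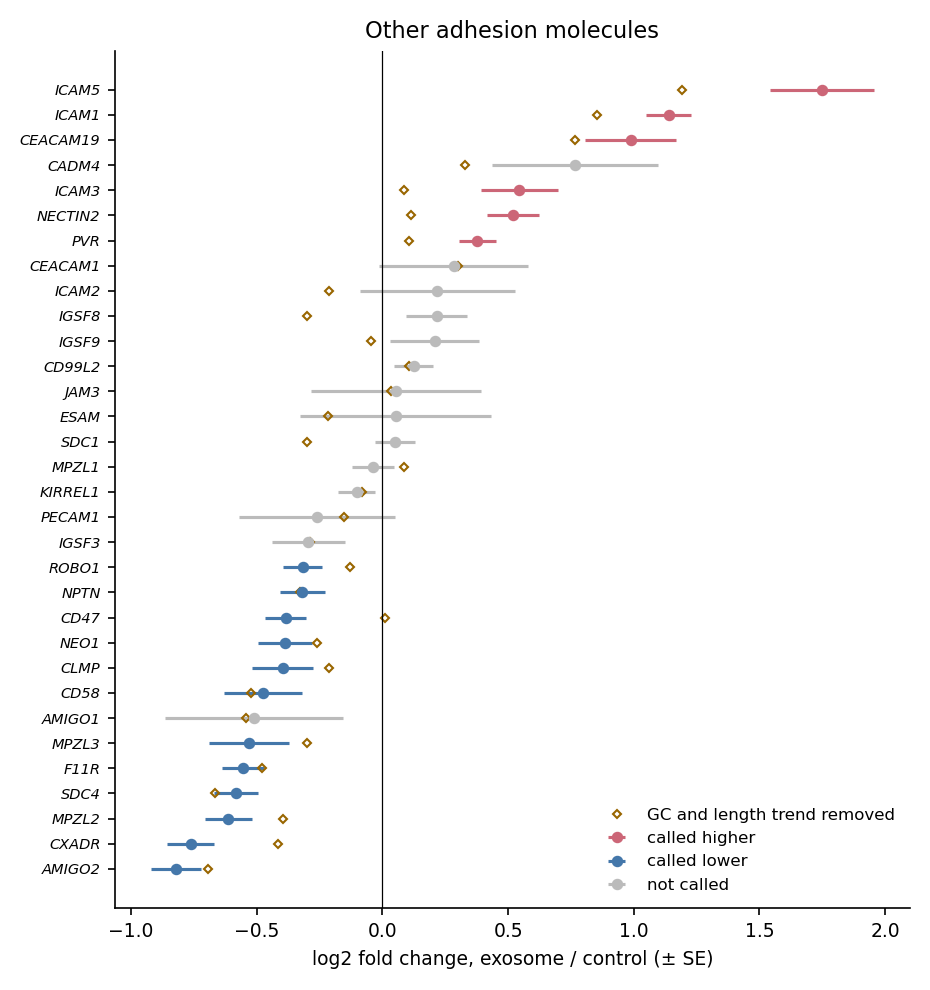
Log2 fold change of exosome over control (± SE) of 32 of the 33 tested adhesion molecules outside the set, coloured by edgeR's call, with open diamonds for the value with the GC and length trend removed. Of those shown, ICAM5 lies highest and AMIGO2 lowest, and the diamonds of PVR, NECTIN2 and ICAM3 lie near 0.

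Ligands were tested next. The list holds chains of laminins, the matrix proteins BCAM is a receptor for, though not each chain is bound by it. It also holds enzymes that make or break hyaluronan, the ligand of CD44, galectins, and partners of L1CAM, ALCAM and other adhesion molecules. Of 16 tested, 7 rose and 2 fell (56.2% called in all, near the 51.7% of all genes). By direction, 43.8% were higher and 12.5% lower, against 25.6% and 26.1% of all tested genes. After correction 8 were higher and 2 lower (62.5%, against 35.3%), and scaled by library totals 11 were higher. The median was 0.26 (corrected 0.17), against -0.0042 (corrected -0.0040) over all genes. The hyaluronan synthase HAS3 rose from 57.5 ± 2.84 to 84.1 ± 3.68 CPM (0.47 ± 0.083, edgeR adjusted p = 8.31e-05; corrected 0.35), and HYAL2, which degrades hyaluronan, rose by 0.61 (corrected 0.24). The laminin chain LAMC1 fell from 556 ± 21.6 to 442 ± 18.6 CPM (-0.41 ± 0.075; corrected -0.27). The other laminin chains of the list rose: LAMB1 from 30.0 ± 0.555 to 43.4 ± 1.03 CPM (0.45; corrected 0.53), and LAMA5 from 427 ± 15.6 to 553 ± 35.5 CPM (0.29), a call that ended with the correction (0.11, edgeR adjusted p = 0.148). SEMA3A, a guidance factor whose receptor complex can hold L1CAM, fell by 0.71 on the log2 scale (corrected -0.25). LGALS1, galectin-1, rose from 370 ± 57.1 to 681 ± 96.9 CPM (0.80 ± 0.12; corrected 0.22). HYAL2 and HAS3 overlap other coding genes (TUSC2 and CHTF8).

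Proteases that shed adhesion molecules, their regulators and the gamma-secretase complex gave 8 higher and 6 lower of 22 tested (63.6% called, against 51.7% of all genes). After correction 2 were higher and 0 lower in edgeR's test (9.09%, against 35.3%). ADAM10, the main sheddase of several of these molecules, fell from 219 ± 8.19 to 164 ± 11.3 CPM (-0.50 ± 0.079, edgeR adjusted p = 2.35e-05), but its corrected value was 0.015 (adjusted p = 0.866). ADAM9 (-0.36; corrected -0.089, edgeR adjusted p = 0.218), the gamma-secretase subunit APH1A (0.39; corrected 0.055, adjusted p = 0.514) and TSPAN15, a tetraspanin that guides ADAM10 (0.33; corrected -0.067, adjusted p = 0.432), lost their calls as well. ADAM8 rose from 15.3 ± 1.22 to 28.3 ± 6.83 CPM (0.80 ± 0.15; corrected 0.36). Without exosome replicate 2, 2 of the list were lower in place of 6, and 3 when scaled by library totals.

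Partners that tie adhesion molecules to the cell skeleton or to junctions were counted likewise. Of 36 tested, 11 fell and 1 rose: 30.6% were lower, near the 26.1% of all genes, and 2.78% higher, against 25.6%. After correction 12 were lower and 6 higher, so that 50% were called, against 35.3% of all genes. Ezrin (EZR), which links CD44 and L1CAM to actin, fell from 441 ± 17.6 to 301 ± 15.4 CPM (-0.63 ± 0.076, edgeR adjusted p = 1.20e-06; corrected -0.77), and radixin (RDX), of the same family, fell by 0.59 on the log2 scale (corrected -0.26). Beta-catenin (CTNNB1) changed by -0.49 (corrected -0.29). The scaffold DLG1 changed by -0.43, a call that ended with the correction (-0.085, edgeR adjusted p = 0.270). The member that rose was CLDN7, a claudin that binds EPCAM, from 8.51 ± 0.752 to 19.9 ± 4.54 CPM (1.14 ± 0.16; corrected 0.69). Scaled by library totals, 4 of this list were higher, and without control replicate 1 or 3, 2 were. CLDN7, RDX, CTNNB1 and EZR overlap other annotated genes.

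Some markers of epithelial cells and of other cell types also differed between the groups, and their part in the values of the adhesion genes was not tested. Beside the counts below, 26.1% of all tested genes were called lower and 25.6% higher, and with the correction 17.3% and 18%. The lists are short, and nothing is read from their counts. Summed over 9 fibroblast markers, control libraries held 277 to 305 CPM and exosome libraries 179 to 186 CPM; 4 of 6 tested fell and 0 rose in edgeR's test (corrected 6 lower), 3 were below 1 CPM, and PDGFRA had no read in control. Of 9 tested epithelial markers 5 fell and 1 rose, and E-cadherin (CDH1), which works beside nectins at adherens junctions, fell from 51.5 to 20.7 CPM (-1.39, corrected -1.34). Of 4 tested blood cell markers 3 rose and 1 fell, while the leukocyte antigen PTPRC was at 0.170 and 0.0756 CPM. Of 2 tested endothelial markers 0 passed, and VWF was at 0.241 and 0.101 CPM.

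Genes with a profile most like that of L1CAM, by Euclidean distance of centred log2 CPM over the 6 libraries among 9402 coding genes of at least 10 CPM, were ATP1B1 (distance 0.17), NEBL (0.27) and THBS1 (0.31), against a median of 1.55. ATP1B1 encodes a subunit of the sodium pump and went from 44.5 to 21.0 CPM. For BCAM they were H1F0 (0.049), ZNF205 (0.12) and VWA1 (0.13), against a median of 1.34. H1F0, a linker histone, went from 160 to 347 CPM, and VWA1, a matrix protein, from 71.0 to 143 CPM. The 6 libraries fall into 2 groups, so likeness here is mostly a like difference between them.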

How the data were processed

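Total RNA of 6 SK-MES-1 cultures was isolated with Trizol, and a NEBNext Ultra kit served for the libraries, per the labels' protocols. The submitters' processing notes name STAR and GRCh38 (hg38). Not given in the sources used here are the counting program, its annotation and whether it used strand. Per the file headers, the deposited table has whole-number read counts per gene, used for every test, and the authors' FPKM values, used only for levels between genes. The gene lengths behind the FPKM are not stated. A further 6 per-sample columns were not used. Every row names a gene.

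The main test was edgeR's quasi-likelihood test on group (edgeR 4.0.16 under R 4.3.3, with filterByExpr, TMM and robust fits), with Benjamini-Hochberg adjustment over 12449 genes at 0.05. SE was obtained by dividing the size of the log2 fold change by the root of F. CPM use library totals. For the correction, log2 CPM (prior count 0.5) minus the gene mean was smoothed per library on GC content and log2 length of the longest GENCODE 29 transcript (loess, span 0.3) and entered as an offset. All 12449 tested genes had both. Alternatives were RLE factors, library totals, other filters, DESeq2 1.42.0, limma-voom (limma 3.58.1), leaving out each library and a replicate block. In simulated counts 15 of 12161 unchanged genes were called, and 92% of the 2-fold changes were found. With the trend of the libraries added it called 3905 of 12165 unchanged genes, and the corrected fit 18, a number largely set in advance, since the added trend came from the same smoothing.

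The 10 genes and the lists were chosen with earlier results of these data known. Named in the text are all 10, the 5 genes of each list past the threshold with the smallest adjusted p and a mean of at least 1 CPM, a set of near relatives whatever their values, and the 3 genes nearest in profile to the members with the lowest and highest fold change. Of the genes that this rule takes, 1 is not reported here. LAMB1 and LAMA5 are named outside this rule, as the other laminin chains of the ligand list. Other marker genes are named with their levels. Positions were counted from 1 on GRCh38.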

Additional observations from a re-analysis of the deposited data

How the results depend on the processing

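Over 15 alternatives, L1CAM, ALCAM, BCAM, MCAM and NECTIN3 kept their direction, with log2 fold changes of -1.49 to -1.14, -0.92 to -0.53, 0.59 to 1.10, -0.83 to -0.56 and -0.80 to -0.41, and those of EPCAM, CD44 and NECTIN1 were -0.31 to -0.14, -0.24 to -0.0053 and 0.0080 to 0.33. CADM1 ran from -0.12 to 0.33. With the GC and length offset, the count of other adhesion molecules called higher was 3 in place of 6, also with the replicate block, and 2148 genes in all were lower in place of 3244. With that offset ADAM10 was at 0.015 (0.017 with the block as well) and TSPAN15 at -0.067 (-0.066), against their direction without it. Leaving out each library in turn gave 2503 to 3234 genes higher and 2608 to 3375 lower, and 6 to 8 other adhesion molecules higher and 10 to 14 lower. Scaled by library totals, 60.4% of all calls were higher, against 49.6%, and the CD44 call ended, as it did with no filter on low counts. Same-numbered libraries are not said to be paired, and their deviations correlated at 0.053, 0.092 and 0.20. Control replicate 1 correlated best with exosome replicate 2, by a small margin (0.062 against 0.053). Control replicates 2 and 3 correlated best with the exosome library of the same number. With the replicate block 3444 genes were higher and 3525 lower, and EPCAM was called lower. Depth limits NRCAM, NECTIN4 and NFASC, whose levels were below 1 CPM.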

Other observations

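Of the genes already counted in the protease list, the gamma-secretase subunit PSENEN, which was picked after its values were seen, rose from 0.463 to 1.77 CPM (log2 fold change 1.84 ± 0.44, edgeR adjusted p = 0.00147; corrected 1.61), on few reads. ACTN4, an actin crosslinker that most cells express, was listed at 0.0294 CPM in control and at 0 with exosomes, while its relative ACTN1 was at 1084 and 909 CPM. The cause was not tested.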
